A study of Homo sapiens with 8 samples.

Results

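The RNAs described here are small Cajal body RNAs (gene symbols beginning SCARNA), close relatives of the small nucleolar RNAs. They were chosen as rows of the array table whose single annotated gene symbol began with SNORD, SNORA or SCARNA and a number. The brightest row was kept for each symbol, and genes were selected on a measured value, their mean intensity over the 8 arrays, which had to reach 47. Of 14812 genes with a named row, 18 met this rule. All 18 carry SCARNA symbols. Among rows with a single symbol in the annotation used here, 21 had such a symbol, 0 a SNORD symbol and 0 a SNORA symbol. The SNORD and SNORA genes, which make up the small nucleolar RNAs proper, were therefore not analysed here, and the comparison of box classes was made among the Cajal body RNAs.

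Cajal body RNAs guide enzymes to the spliceosomal small nuclear RNAs, whose chemical modification takes place in the Cajal body of the nucleus. RNAs with C and D boxes bind the methyltransferase fibrillarin and guide 2′-O-methylation, while those with H and ACA boxes bind the pseudouridine synthase dyskerin and guide pseudouridylation. Some members join both kinds of domain in a single molecule. Most are cut out of the introns of protein-coding genes, called their host genes, and a few are transcribed from promoters of their own. One of them, SCARNA22 (also called ACA11), lies in an intron of NSD2, the gene that the t(4;14) translocation of myeloma activates. No small nuclear RNA is known as its target, so it is called an orphan guide.

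By class, the 18 members comprised 9 of the H/ACA type (SCARNA1, SCARNA3, SCARNA4, SCARNA8, SCARNA11, SCARNA18, SCARNA20, SCARNA21 and SCARNA22) and 5 of the C/D type (SCARNA2, SCARNA7, SCARNA9, SCARNA17 and SCARNA9L, a copy of SCARNA9). A further 3 were of the mixed type (SCARNA5, SCARNA6 and SCARNA10), and SCARNA27 was left without a class. The classes are background knowledge and were not derived from the array. The mean intensity over 8 arrays, which the rule used, was 50.8 for SCARNA1, 59.7 for SCARNA3, 64.5 for SCARNA18, 70.6 for SCARNA11 and 98.5 for SCARNA8, the members nearest to the limit. Below it lay 3 further Cajal body RNAs, SCARNA14 (38.1), SCARNA15 (27.5) and SCARNA23 (26.3), which were left out. Probes of different rows bind with different strength, so a brighter row is not evidence of a more abundant RNA.

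The 8 arrays came from 4 established human multiple myeloma lines, KMS11, KMS18, KMS34 and OPM2, all with t(4;14) per the labels. Each line gave 1 array of cells labelled control and 1 of cells with a knockdown of MMSET I, a short isoform of NSD2. Lentivirus was applied to both with 8 µg/mL polybrene, and the label protocols give 48 h of incubation after a change of medium. The design text speaks of 72 h with shRNAs, and of KMS11 alone. What the control vector carried is not given in the sources used here, nor are the sequences of the shRNAs. The 4 lines served as the replicates of the knockdown (n = 4), while every comparison within a line rests on 1 array per condition. All p-values use the spread of the knockdown differences between lines. For comparisons between lines, the control and the knockdown array of a line therefore stand in as its replicates. Effects of culture or handling shared by both arrays of a line are not in that error and cannot be told apart from the line. In bulk RNA of this kind, a change in the share of cells and a change in RNA per cell cannot be told apart.

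The targeted gene, NSD2, has 1 value for all its isoforms here and did not pass the test. It was lower in 4 of 4 lines, as were 8.77% of all genes tested, with a log2 difference of -0.18 (limma, SE 0.064, adjusted p = 0.471 over 11109 genes tested). The labelled cell type was checked with plasma cell genes: 6 of 10 listed genes were measured (SDC1, CD38, XBP1, IRF4, MZB1 and SLAMF7). Their summed intensities were 8038 to 10795 on control and 7755 to 11187 on knockdown arrays. Rows bind with different strength, so such sums do not measure the share of a cell type. CD38 was dim in KMS11, with 50.6 on the control and 83.2 on the knockdown array, against 168 to 416 in the other lines. Its log2 difference from those lines was -1.99 (limma, adjusted p = 1.29e-07). SDC1, XBP1, IRF4, MZB1 and SLAMF7 had 778 or more on every array. Markers of other cells were measured as well. The 5 measured genes of T and NK cells summed to 308 to 388 on control and 332 to 397 on knockdown arrays, the 7 myeloid genes to 454 to 500 and 414 to 504, and the 3 stromal and endothelial genes to 116 to 126 and 114 to 134. Bright enough to be tested were 5 of these genes of T and NK cells, 4 myeloid genes and 1 stromal or endothelial gene; limma called 0 of them for the knockdown, and 0 had an unadjusted p under 0.05.

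SCARNA22 differed 4.04-fold between the lines and had no common direction in the knockdown, in which its host gene NSD2 was lower in 4 of 4 lines. Its intensity was 6206 on the control and 6782 on the knockdown array of KMS11, 4933 and 4805 in KMS34, 2791 and 2940 in KMS18, and 1782 and 1444 in OPM2. The 2 arrays of each line lay close together and the 4 lines did not overlap. The order was KMS11, KMS34, KMS18 and OPM2, and each step was larger than the spread between the lines' differences. KMS11 was 1.33-fold above KMS34 (limma, adjusted p = 0.00815), KMS34 was 1.7-fold above KMS18 (0.000102) and KMS18 was 1.79-fold above OPM2 (5.02e-05). NSD2, the histone H3 lysine 36 methyltransferase gene, followed another order. It had 733 and 670 in KMS11, 744 and 677 in KMS34, 680 and 549 in KMS18, and 814 and 728 in OPM2. Its line means spanned 1.26-fold (limma F test, adjusted p = 0.0295), with OPM2 above the other lines (log2 difference 0.20, 0.0438) and KMS18 below them (-0.25, 0.0141), whereas OPM2 was the lowest line of SCARNA22. Over the 4 line means the log2 values of SCARNA22 and NSD2 had a Pearson correlation of -0.24, given as a description of 4 lines. Without OPM2 the range of SCARNA22 was 1.18 log2 units in place of 2.02 and still passed (limma F test, adjusted p = 7.22e-06).

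**Figure D1:**
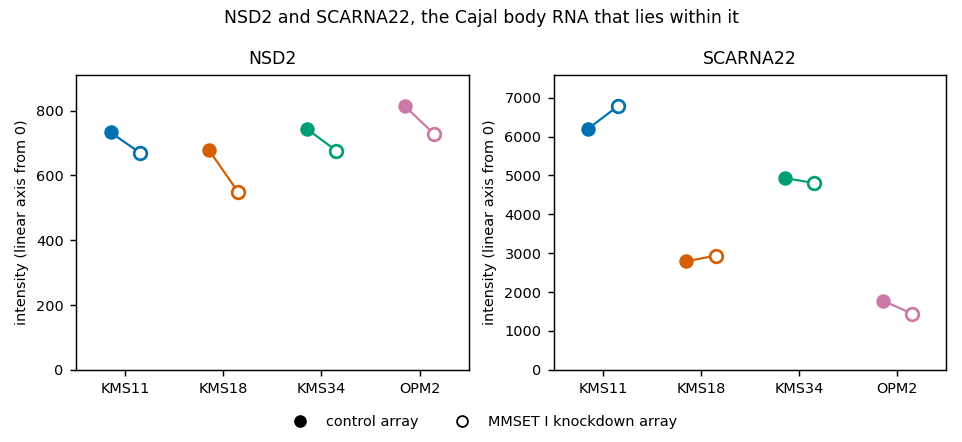
Intensity (linear axis from 0) of NSD2 (left) and SCARNA22 (right) in each cell line; filled points are control arrays, open points knockdown arrays, and a line joins the 2 arrays of a cell line. NSD2 was lower with the knockdown in 4 of 4 lines, while SCARNA22 was higher in 2 lines and lower in 2, and ranged from 1444 to 6782.

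With the knockdown, the log2 difference of SCARNA22 was 0.13 in KMS11 and 0.07 in KMS18, but -0.04 in KMS34 and -0.30 in OPM2. NSD2 had -0.13, -0.31, -0.14 and -0.16 in the same order of lines. The mean for SCARNA22 was -0.03, with a 95% interval of -0.20 to 0.13 (limma, SE 0.077, adjusted p = 0.934). That interval holds the NSD2 mean of -0.18, so a fall of SCARNA22 as large as that of NSD2 is within the error of these 4 lines. The sign of SCARNA22 rested on OPM2: without that line its mean was 0.055.

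Among the C/D members, 3 of 5 were lowest in KMS18. SCARNA9, a guide for the U2 small nuclear RNA, had an intensity of 542 and 599 on the control and knockdown array of KMS34, 378 and 389 in KMS11, 302 and 297 in OPM2, and 96.0 and 103 in KMS18. The KMS18 arrays lay 3.01-fold below the next line, OPM2 (limma, adjusted p = 3.38e-08), and KMS34 was 1.48-fold above KMS11 (0.000219). SCARNA9L, which lies within the gene EIF1AX, followed the same order with 212 and 193 in KMS34, 158 and 158 in KMS11, 151 and 136 in OPM2, and 34.5 and 38.8 in KMS18. SCARNA9 and SCARNA9L are near-identical copies, so their rows may read each other's RNA and do not count as independent. The KMS18 values of SCARNA9L lay below 47 and close to the first quartile of an array (29.5 to 30.9), and its fold in that line is accordingly uncertain.

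SCARNA17, a C/D guide also called U91, showed the KMS18 difference most evenly against the other lines. It had 1347 and 1484 in KMS11, 1036 and 1182 in KMS34, 1090 and 1006 in OPM2, and 304 and 410 in KMS18. KMS18 was 2.97-fold below OPM2 (limma, adjusted p = 3.82e-07), while KMS34 and OPM2 differed by 1.06-fold (0.599). Without KMS18 the range of line means fell from 2.00 to 0.43 log2 units for SCARNA17, from 2.52 to 0.93 for SCARNA9 and from 2.47 to 0.49 for SCARNA9L; the largest of the adjusted p-values was then 0.00743 (limma F test, SCARNA17).

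The remaining C/D members, SCARNA2 and SCARNA7, were lowest in OPM2 instead. SCARNA2, a guide for U2 that lies in no other RefSeq gene, had 275 and 283 in KMS34, 164 and 157 in KMS11, 152 and 137 in KMS18, and 88.3 and 96.5 in OPM2. KMS34 was 1.73-fold above KMS11 (limma, adjusted p = 2.58e-05) and KMS18 was 1.57-fold above OPM2 (0.000135), whereas KMS11 and KMS18 differed by 1.11-fold (0.193). SCARNA7, a guide for U1, had 435 and 410 in KMS34, 301 and 331 in KMS11, 288 and 268 in KMS18, and 172 and 172 in OPM2. KMS34 was again highest, 1.34-fold above KMS11 (limma, adjusted p = 0.00281), and OPM2 lowest, 1.62-fold below KMS18 (6.7e-05). Without OPM2 the range of line means was 0.95 log2 units for SCARNA2 in place of 1.59, and 0.60 for SCARNA7 in place of 1.30. Without KMS34 it was 0.80 for SCARNA2, and these 3 ranges passed (limma F test).

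The mixed members shared the order KMS34, KMS11, OPM2 and KMS18. SCARNA10, a guide for U5 also called U85, had 843 and 873 in KMS34, 411 and 436 in KMS11, 393 and 400 in OPM2, and 263 and 266 in KMS18. KMS34 stood 2.03-fold above KMS11 (limma, adjusted p = 1.3e-06), KMS11 and OPM2 differed by 1.07-fold (0.361), and OPM2 was 1.5-fold above KMS18 (0.000135). SCARNA5 had 232 and 212 in KMS34, 162 and 194 in KMS11, 148 and 136 in OPM2, and 84.4 and 91.1 in KMS18, with an adjusted p of 0.028, 0.0242 and 0.000213 for the 3 steps (limma). SCARNA6, which lies in the same host gene as SCARNA5, had 131 and 180 in KMS34, 125 and 149 in KMS11, 103 and 92.4 in OPM2, and 71.2 and 52.4 in KMS18. For SCARNA6 the arrays of KMS34 and KMS11 overlapped (limma, adjusted p = 0.453). Without KMS34 the range of SCARNA10 was 0.68 log2 units in place of 1.7, and it was 1.11 without KMS18. Without KMS18 the range was 0.65 for SCARNA5 in place of 1.34 and 0.65 for SCARNA6 in place of 1.33, and all of these passed (limma F test).

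Of the H/ACA members beside SCARNA22, only SCARNA21 varied at least 2-fold between lines. SCARNA21, a guide for the minor spliceosomal RNA U12, had 186 and 206 in KMS11, 175 and 186 in KMS34, 127 and 130 in OPM2, and 62.8 and 85.1 in KMS18. KMS11 and KMS34 differed by 1.09-fold (limma, adjusted p = 0.406), OPM2 lay 1.41-fold below KMS34 (0.00211), and KMS18 lay 1.76-fold below OPM2 (5.17e-05). Without KMS18 its range fell from 1.42 to 0.61 log2 units and passed (limma F test, adjusted p = 0.000363).

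The other 7 H/ACA members spanned 1.17-fold to 1.49-fold between line means. SCARNA11 was lower in KMS11, with 55.3 and 49.9 against 68.5 to 86.6 on the 6 arrays of the other lines, a log2 difference of -0.54 (limma, SE 0.09, adjusted p = 0.000316). Without KMS11 its range was 0.05 log2 units in place of 0.56 and did not pass (limma F test, adjusted p = 0.863). SCARNA1, a guide for U2, had 37.4 and 43.2 in OPM2 and 41.7 to 64.1 in the other lines, so that arrays overlapped; it passed the test between lines (limma F test, adjusted p = 0.00782), but not without OPM2 (0.0555, range 0.38 log2 units in place of 0.58). It passed the rule's limit through KMS11 and KMS34, since its line means in KMS18 and OPM2 were under 47. SCARNA8, a guide for U2, ranged from 82.8 to 113 and passed narrowly (limma F test, adjusted p = 0.0345). It did not pass without KMS34 (0.118), without OPM2 (0.0858) or with unnamed rows added to the fit (0.0523).

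SCARNA20, a guide for U12, ranged from 95.4 to 124 over the 8 arrays and SCARNA4, a guide for U2, from 90.4 to 112. SCARNA18 ranged from 51.5 to 77.4 and SCARNA3 from 51.7 to 67.2. For these 4 members the test over all lines did not pass (limma F test, adjusted p = 0.206 for SCARNA20, 0.107 for SCARNA4, 0.182 for SCARNA18 and 0.0684 for SCARNA3), although SCARNA3 passed without KMS11 (0.0305) and SCARNA4 with array medians centred (0.034). Single contrasts of SCARNA3 did pass: KMS34 was lower than the other lines by a log2 difference of -0.24 (limma, adjusted p = 0.0255) and KMS18 was 1.21-fold above KMS34 (0.0324). A p above the threshold does not show that the lines were equal.

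SCARNA27, the member left without a class, had 257 and 280 in KMS18, 169 and 157 in OPM2, 121 and 140 in KMS34, and 104 and 136 in KMS11, so KMS18 was its highest line, as it was for the H/ACA members SCARNA11 and SCARNA3. KMS18 was 1.64-fold above OPM2 (limma, adjusted p = 0.000218), while KMS34 and KMS11 overlapped (0.374). Without KMS18 its range was 0.46 log2 units in place of 1.17 (limma F test, adjusted p = 0.0155).

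**Figure D2:**
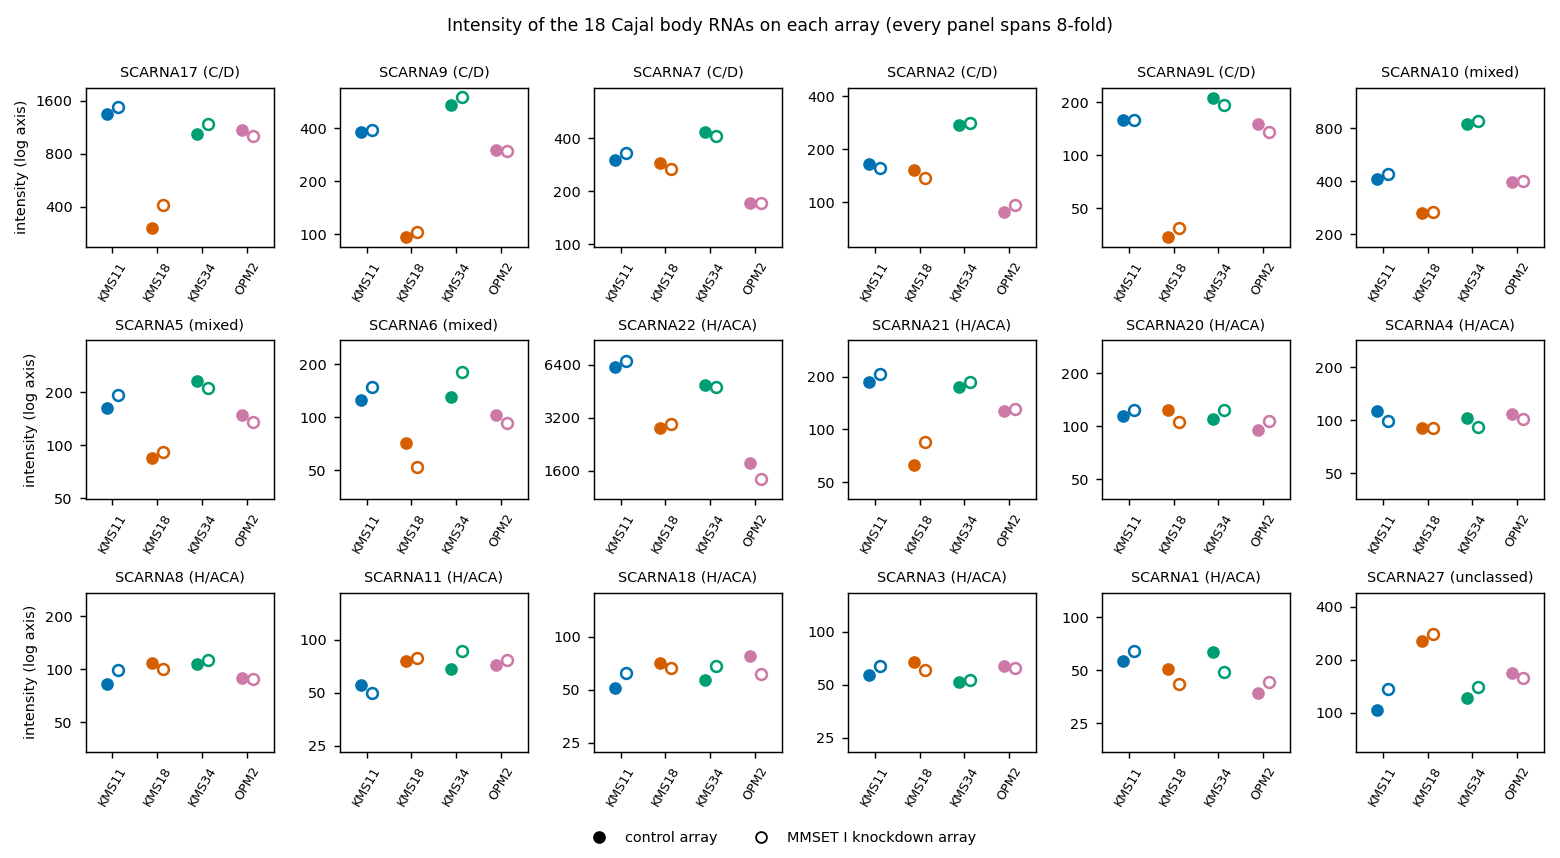
Intensity of the 18 Cajal body RNAs on each array (log axis, each panel spanning 8-fold), with box class in brackets; filled points are control and open points knockdown arrays. The 2 arrays of a line lie closer together than neighbouring lines do for SCARNA9 and SCARNA22, and KMS18 is lowest in 8 of the 18 panels by line mean.

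Across the members, 14 of 18 (77.8%) differed between lines (limma F test, adjusted p under 0.05), against 75.7% of all genes tested, so the number of calls was near the background. The share with wide differences was higher: the line means of 11 members (61.1%) passed and lay at least 2-fold apart, against 18.9% of all genes. This count rested on KMS18: without it 4 members (SCARNA22, SCARNA10, SCARNA7 and SCARNA2) passed at 2-fold or more, against 13.7% of all genes. The count was 11 without KMS11, 8 without KMS34 and 9 without OPM2, against 12.9%, 13.9% and 13.2% of all genes. The 11 members of the full fit include both SCARNA9 and its copy SCARNA9L. From the highest to the lowest line mean, the median span was 1.31 log2 units over the members and 0.52 over all genes tested. Of the 18 members, 13 had a range above the median of all genes.

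By class, the range was 1.30 to 2.52 log2 units for the C/D members (median 2.00), 1.33 to 1.7 for the mixed members (median 1.34) and 0.22 to 2.02 for the H/ACA members (median 0.31). All 5 C/D and all 3 mixed members passed at 2-fold or more, as did 2 of 9 H/ACA members, SCARNA22 and SCARNA21. SCARNA9 and its copy SCARNA9L both count here although they are not independent, and the KMS18 mean of SCARNA9L, 36.6, lay under 47. Without KMS18 the counts were 2 C/D members, 1 mixed member and 1 H/ACA member, and the median ranges were 0.93, 0.65 and 0.31 log2 units. Without KMS34 they were 3, 2 and 2, and without OPM2 3, 3 and 2. Brightness moved with this split. The median of the mean intensities was 297 for C/D, 157 for mixed and 98.5 for H/ACA members, and over the 18 members the range correlated with log2 mean intensity at 0.67 (a description across genes of the same arrays). Only 3 H/ACA members reached a mean intensity of 100, and of these SCARNA20, at 113, had a range of 0.23 log2 units. SCARNA6, at the same mean intensity of 113, had one of 1.33. The length of the RNAs was not compared between the classes. The parts of brightness and of RNA length in the class difference were not tested.

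**Figure D3:**
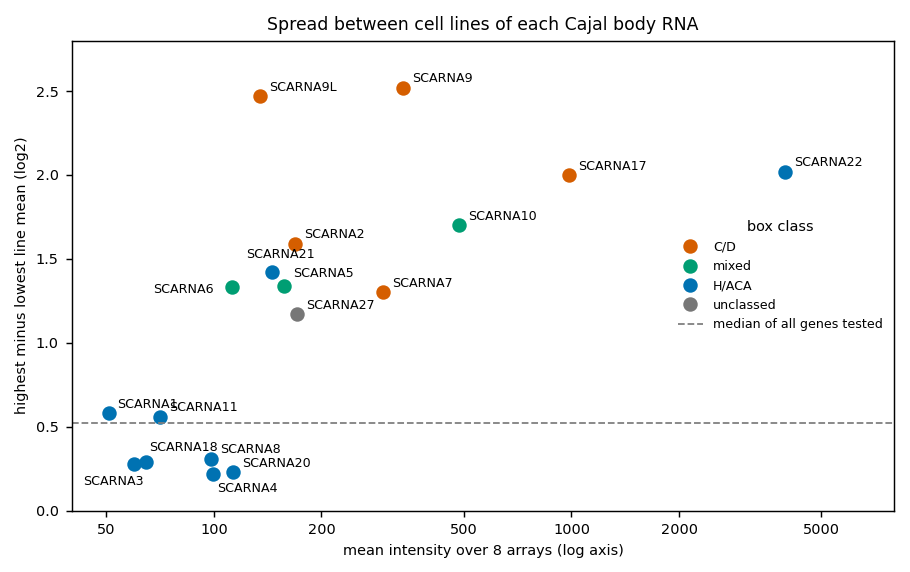
Highest minus lowest line mean (log2) of each Cajal body RNA against its mean intensity over 8 arrays (log axis), coloured by box class; the dashed line is the median range of all genes tested, 0.52. The C/D and mixed members lie at 1.30 or above, and 7 of 9 H/ACA members lie at 0.58 or below.

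Set against the mean of the other 3 lines, KMS34 was higher for 11 members and lower for 2, where 24.4% of all genes tested were called higher and 20.9% lower in that line (limma). The 11 were the 5 C/D and the 3 mixed members with SCARNA22, SCARNA21 and SCARNA8. The members lower in KMS34 were SCARNA27 and SCARNA3. KMS18 was lower for 8 members and higher for 1, against 28.9% and 19.4% of all genes; the 8 were SCARNA22, SCARNA17, SCARNA10, SCARNA9, SCARNA5, SCARNA21, SCARNA9L and SCARNA6. KMS11 was higher for 9 and lower for 2 (background 31.0% and 24.5%), and OPM2 was lower for 5 and higher for 2 (background 26.1% and 22.6%). Each such contrast holds the other lines as well, and the counts for KMS11 and OPM2 rested on KMS18. Without it KMS11 was higher for 5 members and OPM2 lower for 12. The shares of all genes in that fit are not given here, so these counts have no background beside them.

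By line mean alone, KMS34 was the highest line of 8 members, KMS11 of 6, KMS18 of 3 and OPM2 of 1, where 23.1%, 27.8%, 23.8% and 25.4% of all genes tested had their highest mean in these lines. KMS18 was the lowest line of 8 members, OPM2 of 6, KMS11 of 3 and KMS34 of 1, where the shares of all genes were 25.5%, 23.9%, 29.3% and 21.3%. The H/ACA members SCARNA22, SCARNA20, SCARNA8 and SCARNA1 made up most of the members lowest in OPM2, with the C/D members SCARNA7 and SCARNA2.

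Over the 6 pairs of lines, between 10 members (KMS11 against KMS34) and 13 members (KMS34 against OPM2) of 18 were called, where the shares of all genes were 42.2% and 49.9%. The other pairs were KMS18 against KMS34 with 12 members (background 47.6%), and KMS11 against KMS18 (56.5%), KMS11 against OPM2 (54.7%) and KMS18 against OPM2 (38.9%) with 11 members each. Of the 54 steps between neighbouring lines in the members' orders, 26 were called. The same count was not made over all genes, and the orders came from the same values, so 26 is a description only.

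The members fell into patterns that the class did not fix. Over the 8 arrays the log2 values of SCARNA9 correlated with those of SCARNA9L at 0.98, SCARNA5 at 0.98, SCARNA21 at 0.94, SCARNA6 at 0.93 and SCARNA17 at 0.91, and with those of SCARNA27 at -0.91. The members most like SCARNA22 were SCARNA7 (0.85), SCARNA1 (0.83), SCARNA2 (0.74), SCARNA20 (0.63) and SCARNA21 (0.58), of which SCARNA7, SCARNA1, SCARNA2 and SCARNA20 were also lowest in OPM2. These values describe 8 arrays from 4 lines, which share their normalization and come in pairs from a line, and they carry no test.

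Host genes were compared next. RefSeq places 17 of the 18 members within the span of another gene, SCARNA2 being the exception. A host other than a small nucleolar RNA host gene was measured for 9 members, in 8 genes; strand was not compared. The member's line means spanned more than the host's in 7 of 9 pairs, and in 8 of 9 the correlation over 4 line means was above 0. The line with the lowest mean was the same in 5 pairs and that with the highest in 2. That lowest line was KMS18 in each but the pair of SCARNA7 and KPNA4, where it was OPM2. SCARNA5 and SCARNA6 count separately although they share a host. The same counts were not made over other pairs of genes, so they are a description only.

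SCARNA21 and CHD3, which encodes a chromatin remodeller of the NuRD complex, had the most similar values. CHD3 had 385 and 412 in KMS11, 313 and 251 in KMS34, 190 and 212 in OPM2, and 154 and 146 in KMS18, with the same order of lines and a range of 1.41 log2 units against 1.42 for SCARNA21 (correlation 0.94 over 4 line means). CEP295, a centriole gene that holds SCARNA9, was likewise lowest in KMS18, with 106 and 114. It was highest in OPM2 (247 and 243), a line in which SCARNA9 lay below KMS34 and KMS11, and its range was 1.16 against 2.52 for SCARNA9. ATG16L1, an autophagy gene, holds both SCARNA5 and SCARNA6. It had 140 and 142 in KMS11, 106 and 112 in KMS34, 89.5 and 90.7 in OPM2, and 81.9 and 82.3 in KMS18, so all 3 were lowest in KMS18, but KMS34 was the highest line of both RNAs and KMS11 that of the host.

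KPNA4, an importin alpha gene that holds SCARNA7, was also highest in KMS34 and lowest in OPM2, with a range of 0.66 log2 units against 1.30. For the dimmer H/ACA members, KHDC4 varied by 0.76 log2 units while SCARNA4 within it varied by 0.22. CHD4, a relative of CHD3, was highest in OPM2 and varied by 0.88 log2 units, while SCARNA11 within it varied by 0.56 and was lowest in KMS11. TMEM167A, with 43.2 to 48.3, was too dim to be tested. NSD2 and SCARNA22 were the pair with a correlation below 0.

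**Figure D4:**
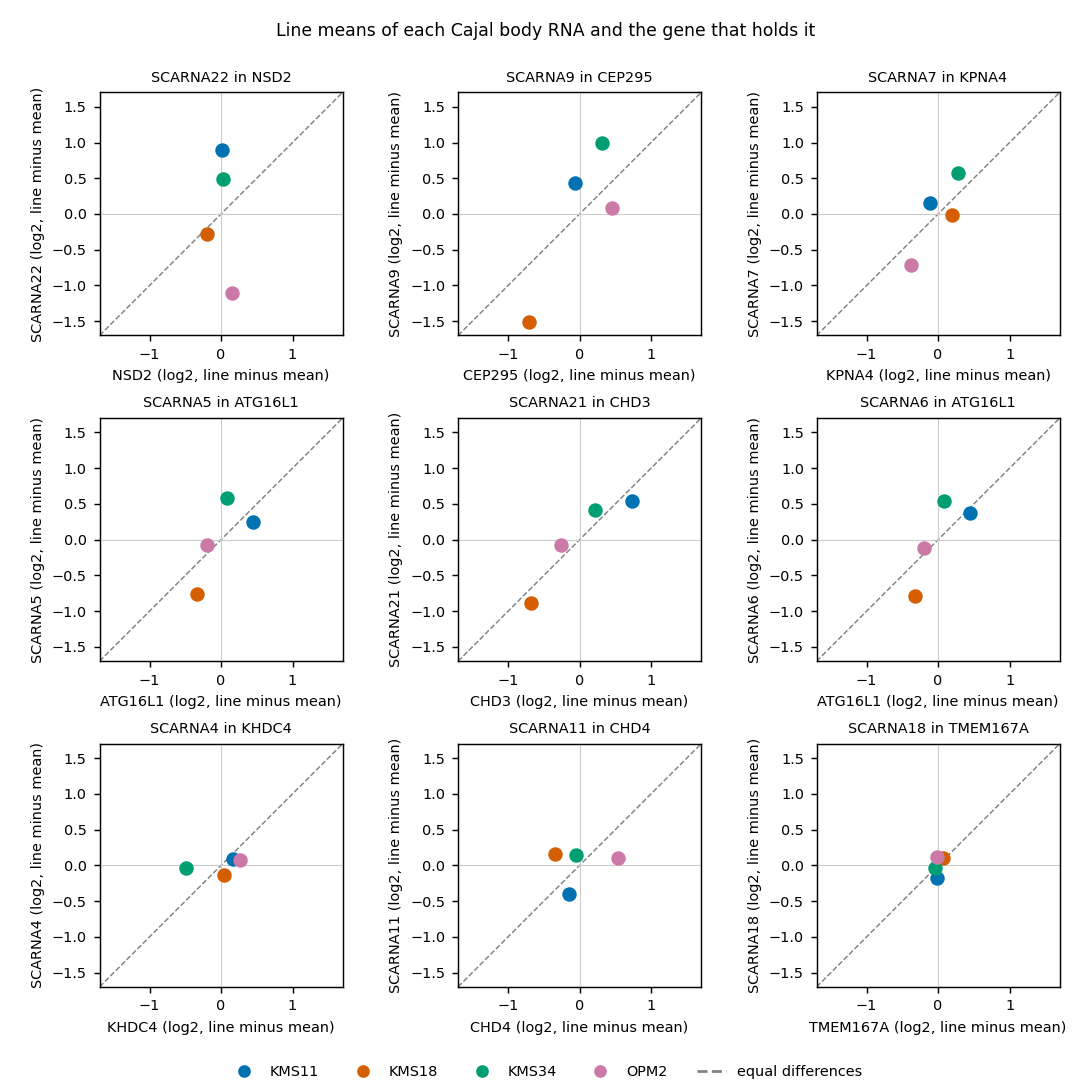
Line means of 9 Cajal body RNAs (vertical axis) and of the gene that holds each (horizontal axis), as log2 deviation from the mean of the 4 lines; the dashed line marks equal differences. SCARNA21 and CHD3 follow that line, SCARNA9 spreads further than CEP295, and SCARNA22 spreads over 2.02 log2 units and NSD2 over 0.33.

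The knockdown was then compared with the control in each line. None of the 18 members passed limma's threshold (0 of 18, where 0.117% of all genes tested passed, 0.018% as higher and 0.099% as lower), and 1, SCARNA21, had an unadjusted p under 0.05, against 8.4% of all genes. SCARNA21 was higher in 4 of 4 lines. Its log2 difference was widest in KMS18 (0.44), followed by KMS11 (0.15), KMS34 (0.09) and OPM2 (0.04), and had a mean of 0.18 with a 95% interval of 0.01 to 0.34 (limma, SE 0.075, unadjusted p = 0.0351, adjusted p = 0.579), which was 0.091 without KMS18. Its host CHD3 was higher in 2 lines and lower in 2, with a mean of -0.03 (limma, SE 0.08, adjusted p = 0.939). SCARNA10 was the other member with the same sign in 4 lines, at 0.09, 0.02, 0.05 and 0.03, a mean of 0.04 (limma, SE 0.06, adjusted p = 0.877). Such agreement was found for 2 of 18 members and for 17.1% of all genes. Both were higher, as were 8.3% of all genes, and 0 members were lower in 4 lines, against 8.77% of all genes.

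SCARNA17 had a mean log2 difference of 0.16 (limma, SE 0.082, unadjusted p = 0.0727), with its widest value in KMS18 (0.43), 0.19 in KMS34, 0.14 in KMS11 and -0.12 in OPM2; without KMS18 the mean was 0.071, and without OPM2 0.254. SCARNA27 also had a mean of 0.16 (limma, SE 0.079, unadjusted p = 0.0731), led by 0.39 in KMS11 and with -0.10 in OPM2; without KMS11 the mean was 0.076, and without OPM2 0.242. The most negative mean belonged to SCARNA4, at -0.12 (limma, SE 0.063, unadjusted p = 0.0936), which was below 0 in KMS11, KMS34 and OPM2 and at 0.00 in KMS18. The 95% intervals of the 18 means reached from -0.28 at the lowest to 0.34 at the highest.

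Within single lines, where no test is possible, 0 members were 1.5-fold higher or lower in any line, and the widest difference was 1.37-fold. In KMS11 the ends were SCARNA27 (0.39) and SCARNA4 (-0.17), in KMS18 SCARNA21 (0.44) and SCARNA6 (-0.44), in KMS34 SCARNA6 (0.46) and SCARNA1 (-0.38), and in OPM2 SCARNA1 (0.21) and SCARNA18 (-0.32). Of the 72 differences, 11 lay outside the range of -0.27 to 0.27 between the 5th and 95th percentile of single-line differences of all genes. SCARNA6 supplied a pair of them with opposite sign. The median absolute difference in a line was 0.134 over the members and 0.10 over all genes.

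The class medians of the knockdown difference lay close to 0 and close to one another. The median log2 difference was 0.0297 over the 9 H/ACA members (6 above 0), -0.011 over the 5 C/D members (2 above 0) and 0.0292 over the 3 mixed members (3 above 0), beside -0.00325 over all genes tested. By line, the median of all 18 members was 0.14 in KMS11, where 14 of 18 lay above 0, 0.009 in KMS18, 0.066 in KMS34 and -0.03 in OPM2, where 7 lay above 0. The medians of all genes were -0.0021, 0.0029, -0.012 and 0.0024 in the same lines. For the H/ACA class the medians were 0.15, -0.092, 0.082 and -0.021, for the C/D class 0.041, 0.11, 0.04 and -0.024, and for the mixed class 0.25, 0.016, 0.05 and -0.12. The median of each class lay above 0 in KMS11 and KMS34 and below 0 in OPM2. Members share an array, so these medians describe 4 pairs of arrays and not 18 measurements each.

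**Figure D5:**
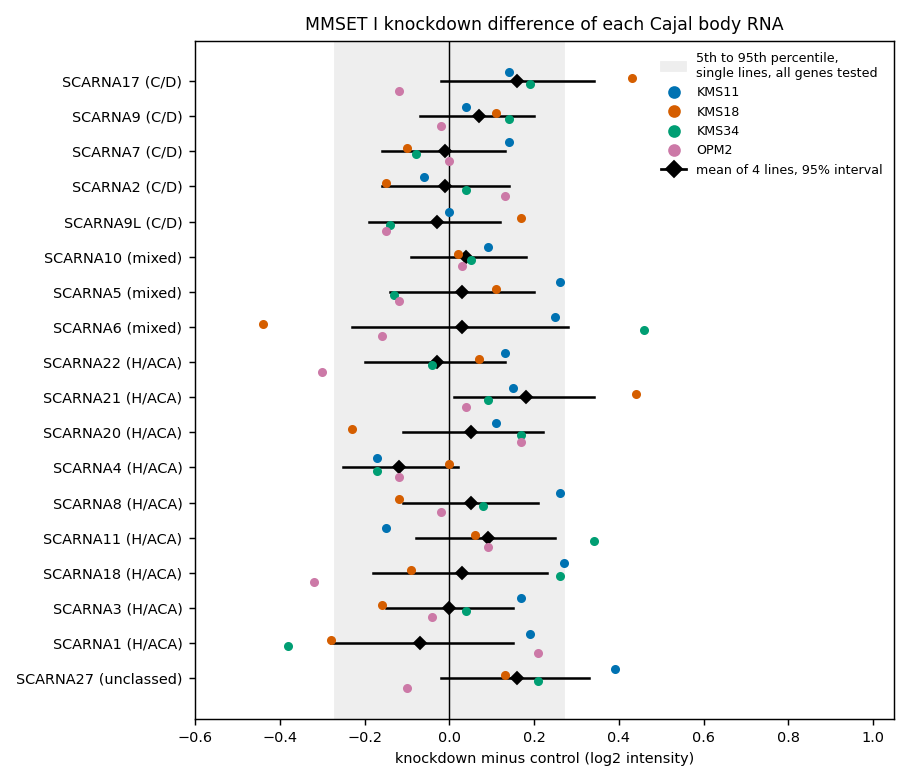
Knockdown minus control (log2 intensity) of each Cajal body RNA; coloured points are single lines, black diamonds the mean of 4 lines with its 95% interval, and the grey band the 5th to 95th percentile of single-line differences of all genes (-0.27 to 0.27). The interval of 1 of the 18 means, that of SCARNA21 (0.01 to 0.34), lies wholly on one side of 0.

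Over 36 pairs of a member and its host in a line, the knockdown difference had the same sign in 21. This count has no background from other pairs of genes and is a description only. SCARNA4 and KHDC4 had the same sign in all 4 lines, SCARNA18 and TMEM167A in 3, and the other 7 pairs in 2. The sign of SCARNA4 in KMS18 rested on 90.4 against 90.5, and that of KHDC4 in OPM2 on a log2 difference of -0.01.

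The proteins that bind, build and process these RNAs were examined from lists of genes. Of the C/D core proteins, FBL (fibrillarin), NOP58 and SNU13 were measured, and of the H/ACA core NHP2, NOP10 and GAR1. The listed core genes NOP56 and DKC1 (dyskerin) had no measured row. Among these 6 genes limma called 0 knockdown differences, and 0 had an unadjusted p under 0.05. The medians were -0.034 for C/D and -0.088 for H/ACA. In OPM2 the differences of NHP2, NOP10 and GAR1 were -0.31, -0.25 and -0.42, and those of FBL, NOP58 and SNU13 were -0.09, -0.05 and -0.23. In KMS11, KMS18 and KMS34 NHP2 had -0.01, 0.01 and -0.04, NOP10 -0.23, 0.03 and 0.03, and GAR1 0.13, 0.19 and 0.29. FBL, NOP58 and SNU13 lay between -0.22 and 0.09 in those lines. In OPM2 4 of 9 H/ACA members lay above 0 (median -0.021), as did 2 of 5 C/D members (median -0.024). The part of these proteins in the values of the RNAs was not tested. Among assembly factors, 6 of 8 had a mean below 0 and 0 passed. The largest was PIH1D1, a subunit of the R2TP chaperone complex, at -0.26 (limma, SE 0.082, unadjusted p = 0.00879, adjusted p = 0.437), and NUFIP1 and RUVBL2, at -0.14 and -0.15, also had an unadjusted p under 0.05.

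All 6 measured transport and Cajal body genes had a mean below 0 and 0 passed. PHAX, the adaptor that exports small nuclear RNAs and takes some guide RNAs to the Cajal body, was at -0.25 (limma, SE 0.076, unadjusted p = 0.00619, adjusted p = 0.399), with -0.40 in KMS34, -0.39 in OPM2, -0.21 in KMS11 and -0.01 in KMS18. COIL, which encodes coilin, the scaffold of the Cajal body, was at -0.15 (adjusted p = 0.605, limma). Of 17 genes for intron debranching, end trimming and the exosome, 16 had a mean below 0, with a median of -0.061, and 0 passed. EXOSC5, at -0.16, had an unadjusted p of 0.028 (limma). In OPM2 all of the 17 but EXOSC1 and PARN lay below 0. In KMS18 DBR1, EXOSC3, EXOSC4, EXOSC7, EXOSC8, DIS3, PARN and TENT4B lay above 0. The decay factors UPF1 and UPF2 were at -0.02 and 0.01. Over all genes tested, 5731 of 11109 had a mean below 0.

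Between lines, the C/D core genes spanned 0.27 to 0.70 log2 units, less than each C/D member, whereas the H/ACA core genes spanned 0.55 to 0.69, more than most H/ACA members. FBL was highest in KMS34, with 3581 and 3583 against 2196 to 2668 on the other arrays, a log2 difference of 0.56 (limma, adjusted p = 6e-05). KMS34 was also the highest line of 4 of the 5 C/D members. SNU13 was lowest in KMS18, with 132 and 113 against 171 to 201 elsewhere (log2 difference -0.65, limma, adjusted p = 3.27e-05), the lowest line of SCARNA9, SCARNA9L and SCARNA17. NOP58 had the span of 0.27. In the H/ACA core, NHP2 and NOP10 were lowest in OPM2, at -0.51 and -0.39 (limma, adjusted p = 0.000244 and 0.0018), the lowest line of SCARNA22, but GAR1 was highest in OPM2, at 0.34 (0.0273). Whether these protein genes bear on the RNAs was not tested.

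Other structural RNAs that are not spliced messages were also measured. Of 7, TERC, RMRP and RPPH1 were bright enough to be tested, and 4 vault RNAs were not. TERC, the telomerase RNA, is itself an H/ACA RNA of the Cajal body. It had 796 and 964 in KMS18, 788 and 750 in KMS11, 453 and 480 in KMS34, and 459 and 465 in OPM2, a range of 0.92 log2 units with KMS18 highest, unlike SCARNA21 and SCARNA22. By line mean, KMS18 was also the highest line of the H/ACA members SCARNA11 and SCARNA3. RMRP, the RNA of a ribonuclease, stayed within 6609 to 7921 and the lines did not differ beyond their spread (limma F test, adjusted p = 0.28). RPPH1, the RNA of ribonuclease P, spanned 0.41 log2 units with KMS34 highest. For the knockdown limma called 0 of these 3, and 0 had an unadjusted p under 0.05. KMS18, the lowest line of 8 members, was not the lowest line of TERC or RMRP, and for RPPH1 it lay level with KMS11 (180 and 181 as geometric means). The column kit named in the labels is made to keep longer RNA, and how much of these short RNAs it retained was not measured here.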

How the data were processed

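RNA from 4 control and 4 MMSET I knockdown cultures was measured on the GeneChip Human Gene ST 2.0 platform of Affymetrix; the series text names GeneSpring for the analysis. The authors deposited linear intensity values, judged so from their range (lowest 18.9 to 19.0, highest 11521 to 13166 per array). How the background was corrected and the arrays normalized is not given in the sources used here; the nearly equal array medians (49.3 to 53.5) point to a common scaling, which would hide a change of all genes at once. Raw probe signals were not used, so no detection calls are given. The number of arrays sets the precision.

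Of 44629 rows, 15835 had 1 gene symbol in the platform annotation. The other 28794 had no symbol or more than 1 and are unnamed here. The brightest row stood for each of 14812 genes, and 11109 genes, all 18 members among them, had a mean log2 value of at least 5.54 (the 25th percentile, or 46.7 in intensity) and were tested. Log2 intensities were fitted with limma 3.58.1 in R 4.3.3 (lmFit, eBayes) with cell line as a fixed block, with Benjamini-Hochberg adjustment over all genes within each comparison and a threshold of 0.05; lines were compared in the same fit. The line in the labels pairs the arrays: deviations from the condition mean correlated at 0.926 to 0.932 between arrays of a line and at -0.135 at most otherwise. Taking out the mean of 4 arrays by itself pushes the values between different lines below 0, so their sign is not evidence of pairing. The fit was tested on simulated data.

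Symbols and the genes that hold the members come from RefSeq (GRCh38.p14), which listed 18 of 18 members; strand was not given there, so hosts were taken by span alone, although the plan had asked for the same strand. The planned search for box C letters was not made, as the sequence tables used here hold no start window of a member. Members, gene lists and tests were chosen with earlier results of these data known. The rule for naming members took SCARNA22, the brightest, those with the same sign in 4 lines, those at the ends of each line's levels and knockdown differences, those with the narrowest range, those next to the limit, the 5 most like SCARNA22, and all hosts; as only 18 met the limit, all are named. The likeness to SCARNA9 and the genes named from the lists (snoRNP proteins, assembly, transport, processing, decay, other small RNAs) lie outside that rule and were chosen after their values were seen.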

Additional observations from a re-analysis of the deposited data

Results flagged for a closer look

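Among 54 groups of 4 values checked (log2 level on control arrays, on knockdown arrays, and knockdown difference of each member), 1 held a value far from the others, while chance gives about 2.7 of that number. SCARNA20 had a log2 knockdown difference of -0.23 in KMS18, where the other lines had 0.11, 0.17 and 0.17.

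SCARNA6 and SCARNA18 moved in opposite directions between lines by at least 0.25 log2 units each way. SCARNA6 had a log2 knockdown difference of 0.46 in KMS34 and -0.44 in KMS18, and SCARNA18 had 0.27 in KMS11 and -0.32 in OPM2. With 1 array per line and condition, these differences between lines were not tested. SCARNA5, in the same host gene as SCARNA6, had -0.13 in KMS34 and 0.11 in KMS18, the opposite signs.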

How the results depend on the processing

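The fit was repeated with each line left out, without a block or with a random one, with quantile normalization or centred array medians, with no filter or one at the 50th percentile, with averaged rows per gene, with unnamed rows added, and with eBayes set to trend and robust. The count of members called for the knockdown was 0 in each, and 0 without the cell line block (no replicate block) as well as with the random block; the smallest adjusted p of a member ranged from 0.437 to 1 (limma). The filter at the 50th percentile tested 14 of 18 members.

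The count of members that differ between lines was 12 to 15. The count at 2-fold or more, repeated in a comparison chosen after seeing the data, was 4 to 11 with a line left out. Over all genes tested, 12.9% to 13.9% met that limit in the same fits. Leaving out a line gave 12 to 14 members that differ between lines. It gave 9 to 11 for KMS34 higher and 7 to 11 for KMS18 lower. For KMS11 higher it gave 5 to 11, and for OPM2 lower 4 to 12. The moves by over 1.5 times, to 5 for KMS11 and to 12 for OPM2, came without KMS18. Shares of all genes for these counts with a line left out are not given here. Class medians moved by less than their spread between lines in each setting, with -0.05 to 0.07 for H/ACA, 0.006 to 0.036 for C/D and -0.047 to 0.079 for mixed members when a line was left out; the C/D median, -0.011 over 4 lines, was above 0 whichever line was left out. With a brightness limit of 100 or none, the H/ACA median was 0.053 or 0.01.

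Knockdown means near 0 changed sign without single lines. Their ranges were -0.157 to 0.038 for SCARNA1, -0.05 to 0.147 for SCARNA18, -0.057 to 0.036 for SCARNA2, -0.089 to 0.055 for SCARNA22, -0.051 to 0.057 for SCARNA3, -0.047 to 0.082 for SCARNA5, -0.117 to 0.184 for SCARNA6, -0.061 to 0.02 for SCARNA7, -0.02 to 0.107 for SCARNA8 and -0.099 to 0.008 for SCARNA9L. Within these ranges, the mean also changed sign without KMS34 for SCARNA18 (-0.049), SCARNA3 (-0.009), SCARNA7 (0.012) and SCARNA9L (0.005), without KMS11 for SCARNA6 (-0.048) and SCARNA2 (0.006), and without KMS18 for SCARNA1 (0.006). The cause was not tested. The brightness of the rows, at 38.8 or less in KMS18 for SCARNA9L, limits what a fold there can show.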
